A study of Mus musculus with 16 samples.

Results

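The genes described here are 10 members of transforming growth factor beta (TGF-beta) and bone morphogenetic protein (BMP) signalling, chosen by name: the ligands Tgfb1, Tgfb2, Tgfb3, Bmp4 and Bmp6, the inhibitory Smads Smad6 and Smad7, and the target genes Id1, Id2 and Id3. They were read by 17 of the 45037 probe sets tested, which cover 18193 named genes in all. Bmp4 was the member that passed the test, at an adjusted p under 0.05. It fell by 0.59 ± 0.10 on the log2 scale in lungs of mice exposed to second-hand smoke (SHS) before birth and as adults. The reference was mice exposed before birth only. In that comparison 1 of 17 member probe sets passed, against 1.64% of all probe sets. Bmp4 did not pass in any other comparison. No other probe set of the 10 genes passed the test in any of the 6 comparisons.

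TGF-beta and BMP ligands are secreted proteins of a shared family that bind pairs of receptor kinases at the cell surface. The receptors phosphorylate receptor-regulated Smad proteins, which join Smad4 and enter the nucleus, where the BMP branch switches on Id genes and both branches switch on the inhibitory Smads that shut the signal down. In the lung, TGF-beta is best known for driving matrix production by fibroblasts, and BMP signalling for its part in branching, in the endothelium of the pulmonary vessels and in the upkeep of the airway and alveolar epithelium.

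Expression was measured in total RNA of left lungs from male Balb/c mice, 15 weeks old, on 16 Affymetrix mouse expression arrays, labelled as 4 animals in each group. The SS mice had SHS in utero and again as adults, the AS mice had filtered air in utero and SHS as adults, the SA mice had SHS in utero and filtered air as adults, and the AA mice had filtered air at both times. The smoke was sidestream smoke carrying 10 mg/m3 of particles, given for 5 h on 7 days a week. The labels name no genetic change, litter, batch or hour of collection, and do not state how long before collection the last exposure ended.

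The deposited values are log2 signals, with array medians between 6.90 and 6.93. AS replicates 3 and 4 were near-identical arrays, as were SS replicates 1 and 2, and whether either pair came from 1 animal or from 2 is not known. Each of these pairs entered the tests as the mean of its arrays, so that there were 3 SS, 3 AS, 4 SA and 4 AA samples; p-values measure the spread between them. The average of AS replicates 3 and 4 stood apart from the rest: it was the highest or the lowest of the 14 samples for 43.1% of genes, against 7.99% to 18.1% in the other 13 samples, and for 7 of the 10 members. Defining markers of lung tissue were among the brightest probe sets. Sftpc of alveolar type 2 cells had 15.07 and Scgb1a1 of club cells 14.95. Ager of alveolar type 1 cells had 14.40 and Pecam1 of endothelium 12.16. The macrophage marker Marco had a low mean of 5.51, the lowest of the 6 measured alveolar macrophage markers. The mean of these 6 was 9.52 in AS lungs and 9.62 in AA lungs, with SA and SS lungs in between. In whole lung RNA, fewer cells of a type and less RNA per cell cannot be told apart.

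**Figure D1:**
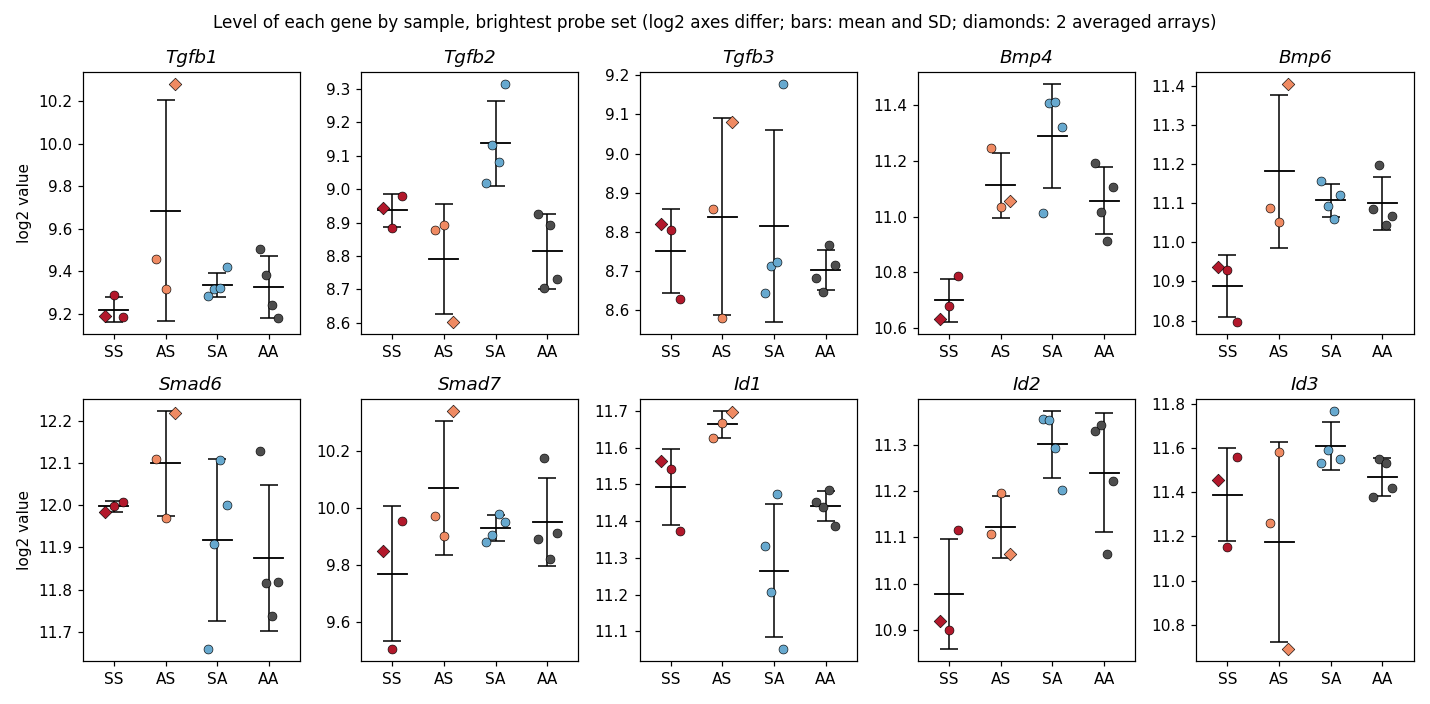
Log2 value of the brightest probe set of each of the 10 genes (y axis, scaled to each gene) in the SS, AS, SA and AA lungs (x axis). Points are samples, diamonds are averages of 2 near-identical arrays, and bars give the mean and SD; the 3 Bmp4 values of the SS lungs, 10.63 to 10.79, lie below those of every other sample.

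Among the BMP ligands, Bmp4, which patterns the developing lung, had log2 values of 10.63, 10.68 and 10.79 in SS lungs, against 11.01, 11.41, 11.41 and 11.32 in SA lungs. The groups did not overlap, and the SS values were also below all AS values (11.25, 11.03 and 11.06) and all AA values (11.19, 11.02, 10.91 and 11.11). SA replicate 1 lay within the AA range, while the other 3 SA samples lay above it. The mean was 10.70 ± 0.08 (SD, n = 3) in SS lungs and 11.29 ± 0.19 (SD, n = 4) in SA lungs, a log2 difference of -0.59 ± 0.10 (SE) with a 95% interval from -0.80 to -0.38, or a 1.51-fold lower signal (limma, adjusted p = 0.00848). The difference was -0.58 without SS replicate 3, where the adjusted p was 0.0559, and the call held without any other single sample.

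Bmp4 differed less from the other groups. It had -0.41 ± 0.11 in SS minus AS (adjusted p = 0.0901) and -0.36 ± 0.10 in SS minus AA (adjusted p = 0.174), and neither passed. Adult SHS after air in utero gave a Bmp4 difference of 0.06 ± 0.10 (AS minus AA, 95% interval from -0.16 to 0.27), and SHS in utero alone gave 0.23 ± 0.09 (SA minus AA, adjusted p = 0.76). The interaction, SS minus SA less AS minus AA, was -0.65 ± 0.14 for Bmp4 and did not pass (limma, adjusted p = 0.099). Without SA replicate 1 the adjusted p was 0.0235 for the interaction and 0.0402 for SS minus AS.

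Of 14 lists of cell type markers, the mean level was lower in SS than in SA lungs without overlap for 3, higher without overlap for 1, and overlapping for 10. The mean of 7 fibroblast markers was 12.092 to 12.159 in SS lungs against 12.164 to 12.376 in SA lungs, so that the groups nearly touched. Of the 7, 4 were lower and 3 were higher in SS lungs. The threshold was passed by 1 of the 7, against 1.91% of all genes. This was Tcf21, a transcription factor of lung fibroblasts, which fell by 0.43 ± 0.08 (limma, adjusted p = 0.0132). The mean of the 5 measured markers of B and plasma cells was 7.99 to 8.70 in SS lungs against 8.91 to 9.30 in SA lungs, with 0 of 5 past the threshold, against 1.91% of all genes, and 4 of 5 at an unadjusted p under 0.05, against 15.5% of all genes. The mean of 5 mesothelial markers was 8.09 to 8.18 in SS lungs against 8.23 to 8.28 in SA lungs, and that of 5 club cell markers was 13.61 to 13.64 in SS lungs against 13.55 to 13.59 in SA lungs, with 0 past the threshold in either list. The means of 7 endothelial markers overlapped, from 11.72 to 11.82 in SS lungs and from 11.64 to 11.89 in SA lungs. The part of these cell types in the Bmp4 difference was not tested.

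Bmp6, the second BMP ligand, read 10.94, 10.93 and 10.80 in SS lungs, against 11.09, 11.05 and 11.41 in AS lungs, 11.16, 11.09, 11.06 and 11.12 in SA lungs and 11.09, 11.20, 11.05 and 11.07 in AA lungs. The SS values were again below those of the 11 other samples, by less than for Bmp4. The difference was -0.22 ± 0.08 in SS minus SA (adjusted p = 0.23), -0.29 ± 0.09 in SS minus AS (adjusted p = 0.145) and -0.21 ± 0.08 in SS minus AA (adjusted p = 0.371), and none of the 3 passed. The AS value of 11.41 belongs to the averaged replicates 3 and 4, and without it the SS minus AS difference was -0.18.

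The Id genes encode helix-loop-helix proteins that lack a DNA-binding region and hold back differentiation factors by pairing with their partners. Their promoters are shown where the table of sequences had them, for Bmp4, for Id2, the member with the next lowest adjusted p in SS minus SA, and for Id3, which overlapped between those groups; this choice was made after the values were seen. The sequences are the 250 bases before the annotated start (RefSeq, GRCm38.p6), read 5′ to 3′ on the gene's strand, with the motifs CAGAC (a Smad-binding box) and GGCGCC (the core of a BMP response element) in capitals on either strand. The windows are chr14:46390670-46390919 (minus strand) for Bmp4, chr12:25096093-25096342 (minus strand) for Id2 and chr4:136143572-136143821 (plus strand) for Id3.
Bmp4: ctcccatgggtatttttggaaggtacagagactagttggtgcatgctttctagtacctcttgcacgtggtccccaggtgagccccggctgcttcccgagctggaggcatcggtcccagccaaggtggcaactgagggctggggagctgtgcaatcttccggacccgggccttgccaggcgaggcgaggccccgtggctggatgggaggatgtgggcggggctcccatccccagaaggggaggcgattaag
Id2: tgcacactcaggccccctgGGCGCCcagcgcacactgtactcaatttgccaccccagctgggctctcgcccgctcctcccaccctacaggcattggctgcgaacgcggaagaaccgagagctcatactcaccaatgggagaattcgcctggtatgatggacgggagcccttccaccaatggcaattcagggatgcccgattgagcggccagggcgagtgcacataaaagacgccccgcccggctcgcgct
Id3: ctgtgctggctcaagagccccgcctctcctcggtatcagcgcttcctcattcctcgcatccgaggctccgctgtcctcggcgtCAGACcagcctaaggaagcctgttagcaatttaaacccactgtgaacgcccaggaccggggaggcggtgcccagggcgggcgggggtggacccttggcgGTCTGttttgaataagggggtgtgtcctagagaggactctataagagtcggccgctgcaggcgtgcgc
The Id2 window holds a GGCGCC whose first base is 231 bases before the start, and the Id3 window holds a CAGAC at 167 and another, on the opposite strand, at 68. The Bmp4 window holds neither motif. The motifs do not overlap each other here. Of the 7 members with a window in the table, 3 hold CAGAC and 1 holds GGCGCC, against 42.2% and 9.59% of all 32851 windows of this length, so that a match is a description of the letters only. The Tgfb2 window, which holds CAGAC, lies inside the annotated span of that gene. The Smad6 window overlaps the edge of the annotated span of its gene.

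Id2 was lower in SS lungs at its 2 brighter probe sets. The brightest read 10.92, 10.90 and 11.11 in SS lungs, against 11.36, 11.35, 11.29 and 11.20 in SA lungs, without overlap, and the difference of -0.32 ± 0.08 had an adjusted p of 0.0634 (limma), just outside the threshold. The second, 1422537_a_at, read 10.30, 10.31 and 10.33 in SS lungs, against 10.58, 10.72, 10.72 and 10.55 in SA lungs, a difference of -0.33 ± 0.09 (adjusted p = 0.0849). The third and dimmest, 1453596_at, had 0.01 ± 0.10 in the same comparison. Against AA lungs, Id2 had -0.26 ± 0.08 in SS lungs (adjusted p = 0.232), -0.12 ± 0.08 in AS lungs and 0.06 ± 0.08 in SA lungs at its brightest probe set. The call of Id2 in SS minus SA depended on the setting: it passed in 7 of the 24 alternative settings, among them array weights (adjusted p = 0.0164).

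Id1, a BMP target prominent in lung endothelium, moved the other way. It read 11.63, 11.67 and 11.70 in AS lungs, against 11.45, 11.44, 11.48 and 11.39 in AA lungs, with no overlap and a difference of 0.22 ± 0.09 (95% interval from 0.04 to 0.41, adjusted p = 0.177). In SS lungs it read 11.56, 11.54 and 11.37, against 11.33, 11.21, 11.47 and 11.05 in SA lungs, a difference of 0.23 ± 0.09 (adjusted p = 0.237). Neither passed, and the 3 SS values lay below all 3 AS values, at -0.17 ± 0.09 in SS minus AS (adjusted p = 0.441). The interaction for Id1 was 0.01 ± 0.12 with a 95% interval from -0.26 to 0.27.

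Id3 read 11.26, 11.58 and 10.69 in AS lungs, against 11.38, 11.55, 11.53 and 11.42 in AA lungs. The low value is the average of AS replicates 3 and 4, which both read 10.69 alone. With it the difference was -0.29 ± 0.16 (adjusted p = 0.298), and without it -0.05. In SS lungs Id3 read 11.45, 11.15 and 11.56, against 11.53, 11.59, 11.77 and 11.55 in SA lungs, a difference of -0.22 ± 0.16 (adjusted p = 0.565).

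**Figure D2:**
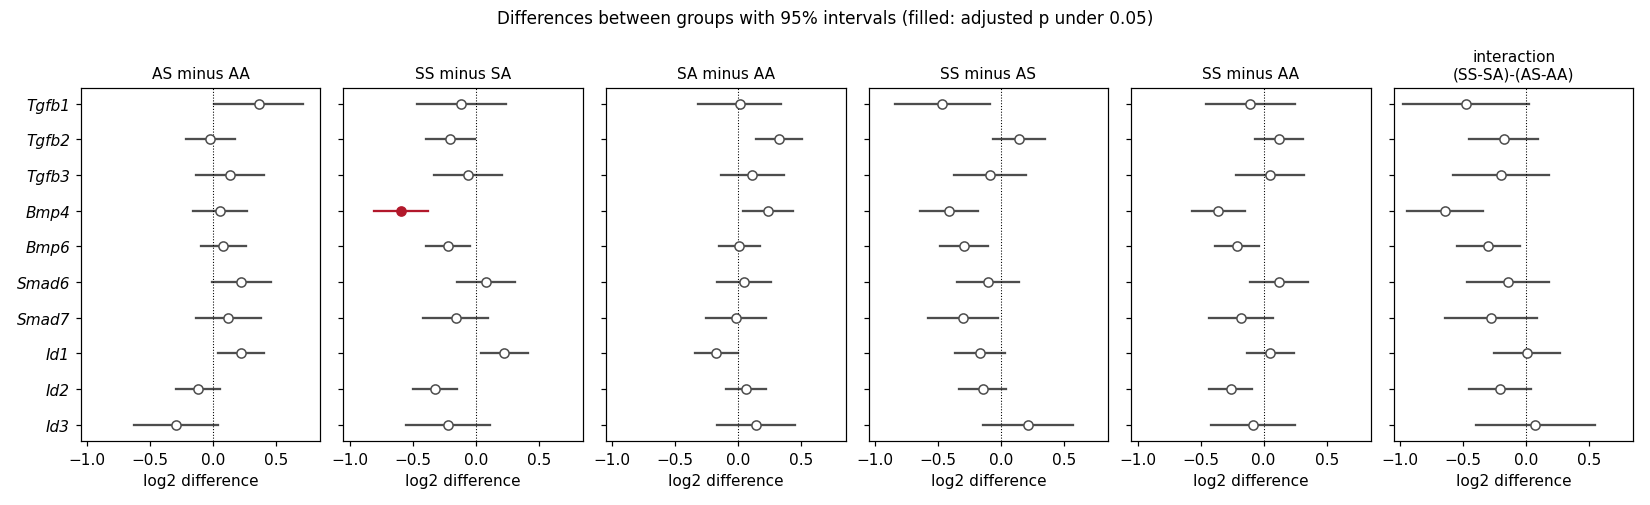
Log2 difference (x axis) of each of the 10 genes at its brightest probe set in 6 comparisons, with 95% intervals from the limma fit. The filled red point, Bmp4 in SS minus SA at -0.59, is the 1 value past an adjusted p of 0.05.

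Of the 3 TGF-beta ligands, Tgfb1 is the form tied most to fibrosis and immune control, and all 3 are secreted in a latent complex. Tgfb1 read 9.46, 9.32 and 10.28 in AS lungs, against 9.50, 9.38, 9.24 and 9.18 in AA lungs. The value of 10.28, the average of AS replicates 3 and 4, lay far above the 13 other samples, which ran from 9.18 to 9.50. The AS minus AA difference was 0.36 ± 0.16 with that sample (adjusted p = 0.237) and 0.06 without it (adjusted p = 0.794). In SS minus SA it was -0.12 ± 0.16, from 9.19, 9.29 and 9.18 in SS lungs and 9.29, 9.32, 9.32 and 9.42 in SA lungs, and in SS minus AS it was -0.47 ± 0.18 (adjusted p = 0.258), or -0.17 without the averaged sample. A second, dim Tgfb1 probe set, 1445360_at, overlapped between groups in all 5 pairwise comparisons, with differences from -0.03 in SA minus AA to 0.14 in SS minus SA.

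Tgfb2 had its largest differences between SA and AA lungs, which differ in the in-utero exposure. The brightest of its 4 probe sets read 9.02, 9.13, 9.08 and 9.31 in SA lungs, against 8.93, 8.71, 8.89 and 8.73 in AA lungs, with no overlap and a difference of 0.32 ± 0.08 (95% interval from 0.14 to 0.50, adjusted p = 0.654). A second probe set, 1450922_a_at, read 9.01, 8.96, 9.03 and 9.08 in SA lungs, against 8.68, 8.61, 8.74 and 8.76 in AA lungs, a difference of 0.32 ± 0.06 (adjusted p = 0.351). The remaining ones had 0.14 ± 0.07 (1438303_at, no overlap) and 0.11 ± 0.13 (1423250_a_at, overlapping). In SS lungs, which had SHS at both times, the brightest read 8.94, 8.88 and 8.98 in SS lungs, below all SA lungs, with -0.20 ± 0.09 in SS minus SA (adjusted p = 0.326), and 1450922_a_at had -0.22 ± 0.06 (adjusted p = 0.101). None of these differences passed. In AS minus AA the 4 probe sets ran from -0.29 at 1423250_a_at to 0.06 at 1450922_a_at.

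Tgfb3, expressed by lung mesenchyme, overlapped between groups in all 5 pairwise comparisons, with differences from -0.09 ± 0.13 in SS minus AS to 0.14 ± 0.13 in AS minus AA. The 2 highest samples were SA replicate 4 at 9.18 and the averaged AS replicates 3 and 4 at 9.08, while the others ran from 8.58 to 8.86. The same 2 samples had the highest means of 7 smooth muscle and pericyte markers, at 10.58 and 10.40. The part of these cells in the Tgfb3 values was not tested. Without SA replicate 4 the SA minus AA difference was -0.01, against 0.11 ± 0.12 with it, and without the averaged AS sample the AS minus AA difference was 0.02.

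**Figure D3:**
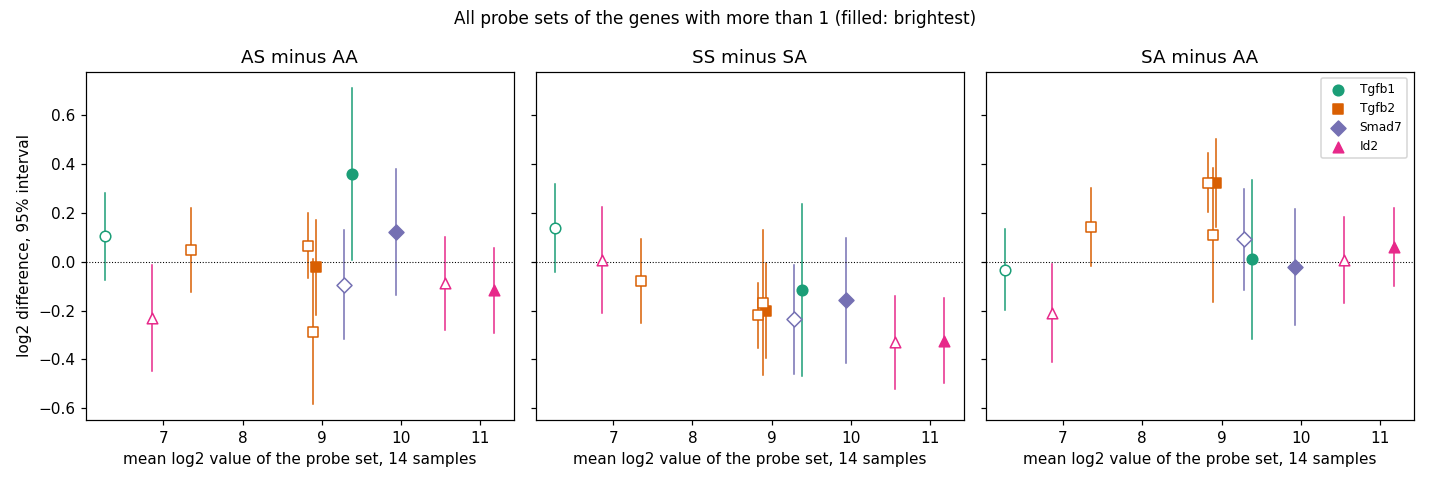
Log2 difference with its 95% interval (y axis) for every probe set of the 4 genes that have more than 1, set against the probe set's mean log2 value over the 14 samples (x axis), in 3 comparisons. Filled symbols are the brightest probe sets; the 2 brighter Id2 probe sets have -0.32 and -0.33 in SS minus SA, and the dimmest has 0.01.

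The inhibitory Smads, feedback brakes that bind activated receptors and recruit ubiquitin ligases to them, did not pass in any comparison. Smad6, which acts mainly on the BMP branch, read 12.11, 11.97 and 12.22 in AS lungs, against 12.13, 11.82, 11.74 and 11.82 in AA lungs, a difference of 0.22 ± 0.11 with overlap at AA replicate 1 (adjusted p = 0.257). Its 3 SS samples lay close together, at 11.98, 12.00 and 12.01, within the SA range of 11.66 to 12.11. Smad7, which acts on both branches, had 9.97, 9.90 and 10.34 in AS lungs, against 9.89, 10.17, 9.82 and 9.91 in AA lungs. Its AS minus AA difference was 0.12 ± 0.12, and -0.01 without the averaged AS replicates 3 and 4, which hold the 10.34. In SS minus SA, Smad7 had -0.16 ± 0.12 at its brightest probe set and -0.24 ± 0.10 at 1443771_x_at, whose suffix marks probes that may also bind other transcripts, and the low SS value of 9.50 at the brightest was replicate 3.

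**Figure D4:**
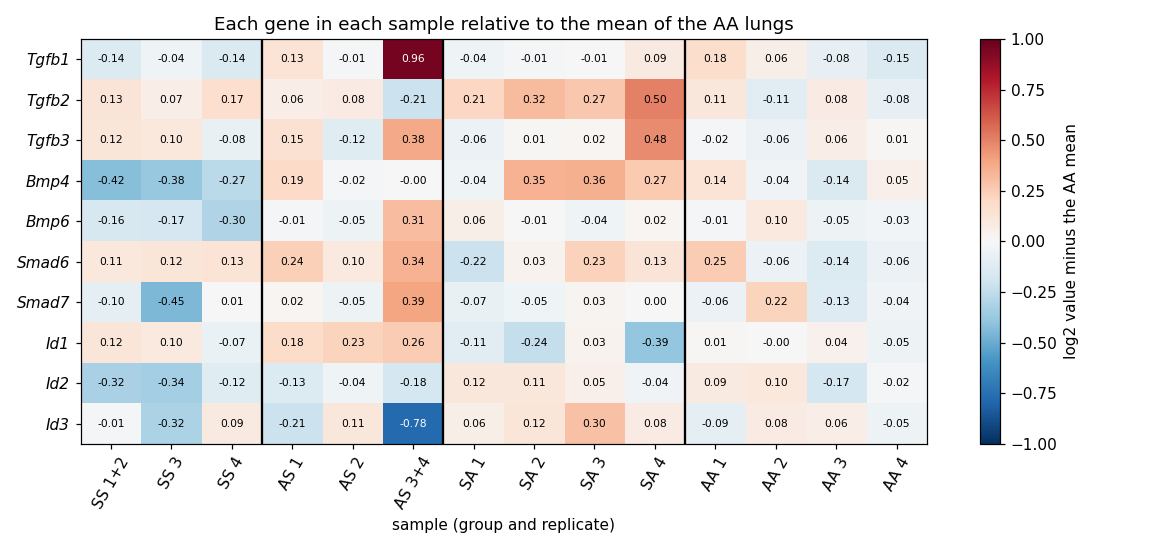
Log2 value of each gene (rows) in each sample (columns, SS, AS, SA and AA from left to right) minus the mean of the AA lungs, with the difference printed in each cell. The column of the averaged AS replicates 3 and 4 holds the highest value, 0.96 for Tgfb1, and the lowest, -0.78 for Id3.

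Counts of member probe sets were read against those of all probe sets. The members were chosen with earlier results of these data known, so the counts describe this list and do not test for an excess. In SS minus SA, 1 of 17 member probe sets passed, lower, against 1.64% of all probe sets (0.864% lower). At an unadjusted p under 0.05 there were 8 of 17, 7 lower and 1 higher, against 14.5% of all probe sets, and 6 of 17 were lower with no overlap between the groups, against 8.77% of all. The median over the brightest probe sets of the 10 members was -0.18, against -0.01 over all genes. Probe sets of the same gene are not independent of each other, and Id2 and Tgfb2 supply 4 of the 6.

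In AS minus AA, 0 of 17 passed, against 1.55% of all probe sets. There, 1 of 17 was higher with no overlap, against 8.73% of all, and 3 had an unadjusted p under 0.05, against 20.3% of all, with a median of 0.10 at the brightest probe sets and 0.02 over all genes. In SA minus AA, 0 of 17 passed, as did 0% of all probe sets. There, 3 of 17 were higher with no overlap, all of Tgfb2, against 1.99% of all, and 5 had an unadjusted p under 0.05, 3 higher and 2 lower, against 6.23% of all. In SS minus AS, 0 of 17 passed, against 0.968% of all probe sets, with 4 lower and not overlapping against 9.04% of all, and 5 lower at an unadjusted p under 0.05 against 13.6% of all in either direction. In SS minus AA, 0 of 17 passed, against 0.4% of all, with 3 lower and 1 higher without overlap against 6.97% and 7.13% of all, and 4 lower at an unadjusted p under 0.05 against 10.3% of all in either direction. In the interaction, 0 of 17 passed, against 0.131% of all, and 3 had an unadjusted p under 0.05, all negative, against 9.11% of all. With an unmoderated test the counts past the threshold were the same in all 6 comparisons.

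Beyond the members, 65 of 69 other genes of the pathway were measured. Of the 12 receptors, among them the BMP receptor Bmpr2 and the endothelial co-receptor Eng, 0 passed in any comparison, and their differences in SS minus SA ran from -0.21 (Acvr2b) to 0.10 (Bmpr1b). Of the 6 signal-carrying Smads, 0 passed, with a range from -0.15 (Smad9) to 0.13 (Smad1) in SS minus SA. None of the 10 other ligands, 16 secreted antagonists and latency proteins and 9 intracellular brakes passed either. The share of all genes that passed ran from 0% in SA minus AA to 1.91% in SS minus SA. At such shares, counts of 0 in lists of 6 to 16 genes do not set these lists apart. At an unadjusted p under 0.05, there were 9 of the 65 in AS minus AA, against 18.9% of all genes. In SS minus SA there were 6, against 15.5% of all, and in SA minus AA 3, against 4.95% of all. The share of the 65 was below that of all genes in each of these. It was above in SS minus AS with 11, against 13% of all, and in SS minus AA with 8, against 10.8% of all. In the interaction it was also slightly above, with 5, against 7.34% of all. Thbs1, which activates latent TGF-beta, had 1.05 ± 0.48 in AS minus AA (adjusted p = 0.233) and 0.94 ± 0.48 in SS minus SA (adjusted p = 0.39). Its values overlapped between the groups in both comparisons.

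The genes past the threshold were 3 of the 12 measured targets. In AS minus AA, 2 of the 65 passed, 1 higher and 1 lower, against 1.12% of all genes at their brightest probe sets. Klf10, an early TGF-beta response gene, read 8.84, 8.65 and 9.04 in AS lungs, against 9.66, 9.86, 9.27 and 9.66 in AA lungs, and fell by 0.77 ± 0.14 (limma, adjusted p = 0.0195). In SS lungs it read 10.12, 9.89 and 10.35, the highest values of the 4 groups, against 9.61, 9.39, 9.79 and 9.51 in SA lungs, a difference of 0.54 ± 0.14 that did not pass (adjusted p = 0.0777). The Klf10 differences with adult SHS had opposite signs after the 2 in-utero exposures, and the interaction was 1.31 ± 0.20 (limma, adjusted p = 0.017), 1 of 65 against 0.115% of all genes. The AS minus AA call was lost without AA replicate 2 (-0.69, adjusted p = 0.0626), and the interaction call without AS replicate 2, SS replicates 1 and 2 or SS replicate 4 (1.22, 1.31 and 1.19, with adjusted p of 0.0572, 0.062 and 0.0603). With an unmoderated test the interaction had an adjusted p of 0.148.

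In SS minus AS, 2 of the 65 passed, against 0.764% of all genes: Klf10 rose by 1.27 ± 0.15 (adjusted p = 0.00121) and Junb fell by 1.83 ± 0.22 (adjusted p = 0.00119), both in limma, and both also passed without any single sample. Junb, a transcription factor induced by TGF-beta and by many other stimuli, read 9.99, 10.44 and 9.34 in AS lungs, against 8.57, 9.18, 8.71 and 8.46 in AA lungs, and rose by 1.19 ± 0.20 (adjusted p = 0.0128). In SS lungs it read 8.19, 8.11 and 7.96, against 8.07, 8.18, 7.91 and 7.94 in SA lungs, a difference of 0.07 ± 0.20. All 14 immediate early genes, Junb among them, had a higher mean in AS than in AA lungs. Of these, 6 passed, against 1.12% of all genes. The mean of the 14 was 10.91 to 12.36 in AS lungs against 10.04 to 10.88 in AA lungs. In SS lungs that mean was 9.46 to 10.30, against 9.50 to 9.84 in SA lungs. In SS minus AS all 14 were lower and 9 passed, against 0.764% of all genes. In SS minus SA 1 of the 14 passed, against 1.91% of all genes. This was Apold1, which rose by 2.19 ± 0.37 (limma, adjusted p = 0.00841). The part of this early response in the Junb values was not tested. For AS minus AA, the fit on those 2 groups alone lost both calls, with adjusted p of 0.0957 for Klf10 and 0.116 for Junb, as did the unmoderated test, with 0.0668 for Klf10 and 0.0606 for Junb.

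In SS minus AA, 1 of the 65 passed, lower, against 0.517% of all genes. Id4, the fourth Id gene, read 9.46, 9.48 and 9.34 in SS lungs, against 9.98, 10.17, 9.81 and 9.85 in AA lungs, and fell by 0.53 ± 0.10 (limma, adjusted p = 0.04). The SS values were also below those of SA lungs (9.87, 9.96, 9.94 and 9.58, difference -0.41 ± 0.10, adjusted p = 0.0609) and of AS lungs (9.97, 9.95 and 9.78, difference -0.48 ± 0.11, adjusted p = 0.0559). The SS minus AA call was lost when AA replicate 1 or 2, AS replicate 1, SA replicate 1, 2 or 3, SS replicates 1 and 2, SS replicate 3 or SS replicate 4 was left out, with differences from -0.46 to -0.55 and adjusted p up to 0.172, and held without any of the other 5 samples. It was also lost in the fit on those 2 groups alone (adjusted p = 0.0606) and in the unmoderated test (adjusted p = 0.146). In SS minus SA, 0 of the 65 passed, against 1.91% of all genes, and in SA minus AA 0 passed, as did 0% of all genes.

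**Figure D5:**
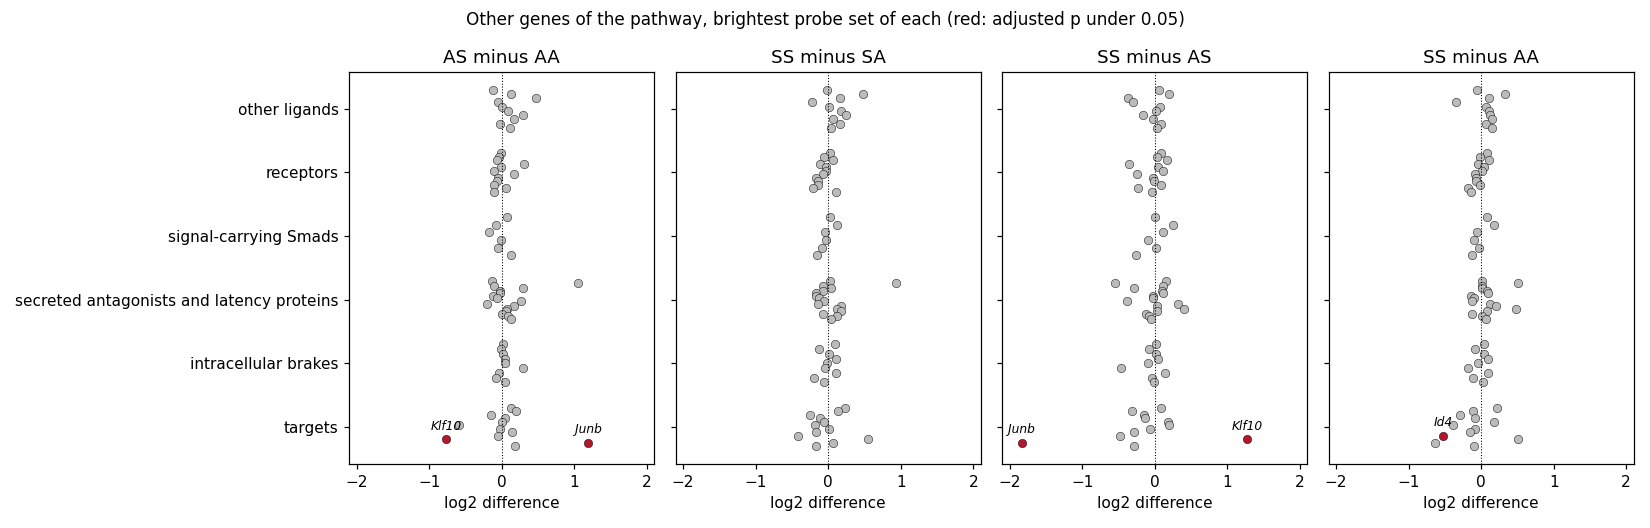
Log2 difference (x axis) of the 65 other pathway genes at their brightest probe sets, grouped by role (rows), in 4 comparisons. Each point is a gene and red points passed an adjusted p of 0.05: Klf10 (-0.77 and 1.27), Junb (1.19 and -1.83) and Id4 (-0.53).

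The genes whose pattern over the 14 samples was most like that of a member were named by Pearson's r among genes with a mean log2 value of at least 8, as a description of samples that share groups and processing. For Bmp4 they were Pcdh18 (r = 0.94), the chemokine receptor Cxcr4 (0.92) and Rnd3 (0.91), with r of 0.91, 0.90 and 0.89 when the 2 samples farthest from the Bmp4 median were left out. For Id2 they were Kdm4c (0.93), the cell cycle inhibitor Cdkn1b (0.92) and Myct1 (0.91), and for Id1 the mesenchymal factor Foxf1 (0.91), the Notch ligand Dll1 (0.90) and Ets2 (0.88). For Tgfb1 they were Hk1, Gpsm3 and Dtx3, with r of 0.97, 0.97 and 0.96 over all samples and of 0.81, 0.87 and 0.82 without the averaged AS replicates 3 and 4. For Tgfb3 the matrix and cytoskeletal genes Col4a2, Flna and Eln had r of 0.91, 0.89 and 0.88, and of 0.60, 0.69 and 0.55 without the 2 farthest samples.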

How the data were processed

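Total RNA of left lungs was read on 16 Affymetrix mouse arrays, labelled as 4 animals per group. The authors deposited 1 log2 value per probe set and array, taken as log2 from a range of 2.40 to 15.11. Array medians from 6.90 to 6.93 show values already normalized between arrays, by a method not given in the sources used here; limma is named without a version, per the submitters' processing notes. No detection call was used, so dim probe sets were kept.

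Of 45101 probe sets, 64 controls were left out. Symbols came from the platform annotation, updated through Entrez identifiers to RefSeq (34741 probe sets). Within-group array pairs were compared by the ratio of their difference over 300 highly variable bright probe sets to that over 3000 of low variability (root mean squares). This ratio was 1.35 for AS replicates 3 and 4 and 1.24 for SS replicates 1 and 2, below the 2.84 to 5.96 of the other 22 pairs, so both pairs were averaged to leave 14 samples. The labels call replicates biological; each averaged pair may be 1 animal.

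A mean per group was fitted to all 45037 probe sets in R 4.3.3 by lmFit and eBayes of limma 3.58.1 (10 residual degrees of freedom; two-sided), with Benjamini-Hochberg adjustment over all probe sets within each comparison and a threshold of 0.05. The fit was tested on simulated data. Errors after ± are standard errors unless named SD. The brightest probe set (highest mean) stands for a gene, all member probe sets were read, and pathway genes past the threshold (up to 4 each way), or the largest difference of a list with none, were named. Promoter motifs were searched only before the start used for each window. Markers and pathway genes came from fixed lists, and both these and the members were chosen with earlier results of these data known. Alternatives covered the averaging, the normalization, filters, array weights, the variance prior and each sample left out.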

Additional observations from a re-analysis of the deposited data

Results flagged for a closer look

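Of 34 groups of 4 samples (the AA and SA lungs at each of the 17 member probe sets), 2 had a sample far from the other 3 by Dixon's test at the 95% level, a rate of about 1 in 20 that chance alone gives. Tgfb2 at probe set 1423250_a_at read 9.36 in AA replicate 2, against 8.73 to 8.82 in the other AA lungs. Tgfb3 read 9.18 in SA replicate 4, against 8.64 to 8.72 in the other SA lungs. In the groups of 3, SS and AS, no such test was made, and no member passed the test of the interaction.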

How the results depend on the processing

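The fall of Bmp4 in SS minus SA kept its direction in all 24 alternatives and passed in 23, with values from -0.68 to -0.55 when a sample was left out. The count of member probe sets past the threshold in SS minus SA was 1, and 0 to 2 with a sample left out (0 without SS replicate 3, and 2 without AA replicate 3 or AS replicate 2). It was 2 in each of the 2-group fit, the filter at a mean of 6, 1 probe set per gene and the trended and robust prior, 4 with array weights and 4 with all 16 arrays as separate samples. In SS minus AS it was 0, with 3 for the 16 separate arrays, 1 with array weights (Bmp4) and 0 to 1 with a sample left out (1 without SA replicate 1). In SS minus AA array weights gave 1 (Id2 at 1422537_a_at). In the interaction the count was 0, with 1, Bmp4, for the 16 arrays and for array weights, and 0 to 1 with a sample left out (1 without SA replicate 1). In AS minus AA and SA minus AA it was 0 to 0 with a sample left out. With the replicate number as a block on the 16 arrays, the counts were 3 in SS minus SA, 3 in SS minus AS, 1 in the interaction and 1 in AS minus AA (Id1). The labels do not say whether samples of the same number belong together. Of 24 same-numbered pairs, 9 had deviations with r over 0.1 (range -0.18 to 0.29). Of 16 arrays, 5 correlated best with an array of their own number. Such correlations cannot exclude a shared litter, batch or day. Counting near-identical arrays as separate samples raises n by construction; the cause of the other shifts was not tested. The 2-group fit gave no value for the interaction. A further quantile normalization and centring on the median changed no member count. Arrays limit precision by their number, and signal over background was not used here.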
